A study of Mus musculus with 15 samples.

Results

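The neutrophil chemokines examined here were Cxcl1, Cxcl2, Cxcl3, Cxcl5 and Cxcl15, together with their receptor gene Cxcr2. The 6 genes were found on the array through the RefSeq accession of each probe, and every gene had 1 probe on 1 spot. All 6 were among the 25251 genes and unnamed transcripts that passed the filter on dim probes, out of 55681 non-control probes on the array. The study exposed mice to rod-like carbon nanotubes (rCNT), stiff fibre-shaped nanotubes, by 2 airway routes and compared the lungs by 2-colour microarray. Oropharyngeal aspiration delivers a suspension in liquid through the mouth into the airways, whereas in inhalation the animal breathes an aerosol.

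The animals in all groups were female C57BL/6 mice, 7 to 8 weeks old, with no transgene or deletion named in the labels, and the lung tissue was collected 24 h after exposure ended. The aspirated rCNT group (4 samples) received 10 µg daily for 4 days, suspended in 50 µl of PBS (phosphate-buffered saline), and the aspirated PBS group (4 samples) received the vehicle alone. The inhaled rCNT group (3 samples) breathed an aerosol of 6.2 to 8.2 mg/m3 for 4 h a day over 4 days. The untreated group (4 samples) was the control for inhalation and received no sham exposure, so the control of each route differed. Array names on the inhalation side contain the word pool, and the sources used here do not say how many mice went into a sample. All p-values thus rest on the variation among these samples, part of which could be technical. Untreated replicate 1 has a title that refers to PBS aspiration, but as its exposure label reads untreated it was kept in that group.

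The 15 samples lay on 14 arrays of 3 slides, and between 54.6% and 64.7% of probes were well above background in a sample. All aspiration samples were on slide 1, so slide and route cannot be told apart, while slides 2 and 3 each held inhaled rCNT and untreated samples. Slide 2 held inhaled rCNT replicate 1 with untreated replicates 1 to 3, and slide 3 held inhaled rCNT replicates 2 and 3 with untreated replicate 4. Each difference within slide 2 or 3 thus rests on 1 sample in 1 of its groups, and only its size is given. Inhaled rCNT replicate 2 and untreated replicate 4 shared an array. All 8 lung defining markers passed the filter, as the label lung requires, with summed linear intensities of 737000 to 1120000 over all samples. Levels below are normalised log2 intensities, in which 1 unit is a doubling, and they are not compared between genes. Differences are on the same scale, with the standard error (SE) and Benjamini-Hochberg adjusted p of 1 limma model fitted to all 25251 features, and a gene is said to rise or fall where that p was below 0.05.

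Chemokines of this family carry a glutamate-leucine-arginine motif ahead of the first cysteines and draw neutrophils out of blood along a gradient by binding Cxcr2, a receptor coupled to inhibitory G proteins. In the lung they are made by epithelium, macrophages and stromal cells after microbial products, interleukin-1, tumour necrosis factor or interleukin-17, largely through the transcription factor NF-kB and through stabilisation of short-lived mRNAs. Cxcl15 (lungkine) differs in being made constitutively by lung epithelium, and mature neutrophils are the main carriers of Cxcr2.

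The 5 chemokine genes lie in 1 cluster on chromosome 5 and Cxcr2 on chromosome 1. The RefSeq promoter table (build GRCm38.p6) held 5 of the 6 genes, all except Cxcl5. The promoters are shown because Cxcl1, Cxcl2 and Cxcl3 carry the same 11-base kB site, a binding motif of NF-kB, close to the gene start. All 3 rose after aspirated rCNT, Cxcl3 did not pass after inhaled rCNT, and any part of the site in these changes was not tested. The lines give the 130 bases ahead of the start on the plus strand, with bases that match the NF-kB consensus on either strand in capitals.
Cxcl1, chr5:90891115-90891244: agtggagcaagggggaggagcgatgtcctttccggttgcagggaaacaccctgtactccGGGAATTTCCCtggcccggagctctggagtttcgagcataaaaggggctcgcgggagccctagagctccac
Cxcl2, chr5:90903769-90903898: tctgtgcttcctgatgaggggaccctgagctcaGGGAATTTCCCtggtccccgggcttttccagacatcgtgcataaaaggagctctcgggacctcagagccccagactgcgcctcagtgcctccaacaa
Cxcl3, chr5:90785971-90786100: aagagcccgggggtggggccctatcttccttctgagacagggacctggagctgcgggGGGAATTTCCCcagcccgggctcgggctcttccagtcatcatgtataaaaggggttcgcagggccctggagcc
Cxcl15, chr5:90794404-90794533: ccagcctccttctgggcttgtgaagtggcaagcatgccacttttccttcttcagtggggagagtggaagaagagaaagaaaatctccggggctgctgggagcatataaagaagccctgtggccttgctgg

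Counting the base just before the start as -1, the site GGGAATTTCCC began at -71 in Cxcl1, -97 in Cxcl2 and -73 in Cxcl3. It reads nearly the same on both strands, and its first and last 10 bases each match the NF-kB consensus, so the 2 overlapping matches are 1 site. The 250-base windows of Cxcl15 and Cxcr2 held no match to the consensus. The consensus occurred in 2382 of 32851 RefSeq promoter windows of that length (7.25%, both strands), and the exact 11-base site in 14 of them (0.0426%). The 11-base form was singled out after the promoters had been read. No window of the 5 genes held an AP-1 match (TGANTCA, 6.75% of all windows) or a C/EBP match (TTGCNNAA, 9.56%), both searched on both strands. On the gene's own strand TATAAA, found in 7.59% of windows, began at -30 in Cxcl3 and at -27 in Cxcl15. A match describes letters in a window and does not show binding.

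Of the 11 other genes with the 11-base site, 6 were tested. After aspirated rCNT 0 of those 6 rose in the limma fit, also at an unadjusted p below 0.05, and Lyzl4, a lysozyme-like gene, fell by 0.33 ± 0.09 (SE, adjusted p = 0.00841). After inhaled rCNT Krtap5-3, a keratin-associated protein gene, was higher by 0.25 ± 0.10 (adjusted p = 0.0415) and Il16, a chemoattractant for CD4 cells, fell by 1.03 ± 0.16 (adjusted p = 3.43e-05). None of these 6 thus rose in both routes. Over all features 20.6% were called higher and 26.5% lower after aspiration, and 28.4% and 32.5% after inhalation, so 6 genes are too few to read these counts. Cxcl3, which carries the site, did not pass after inhalation (0.22 ± 0.10, adjusted p = 0.0727).

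After aspirated rCNT the 4 inducible chemokines and the receptor gene rose and Cxcl15 did not pass the test. The fitted rise was 21.7-fold for Cxcl5, of whose PBS samples 1 of 4 was well above background, 8.06-fold for Cxcl1 and 2.1-fold for Cxcr2. By group means Cxcl3 was at least 3.99-fold and Cxcl2 at least 2.22-fold higher. These lower bounds allow for dim PBS signal but not for sampling error, and give no order against the other genes. On the processed signal, which has no offset, the differences were 6.86 for Cxcl5, 5.58 for Cxcl3, 4.14 for Cxcl2 and 3.84 for Cxcl1 on the log2 scale. The first 3 of these rest largely on PBS signal near background and give no order either. Thus 5 of 6 genes were higher and 0 lower in the limma fit (0 also at an unadjusted p below 0.05), where 20.6% of all features were called higher, 26.5% lower and 47.2% in either direction. The median difference over the 6 genes was 1.61, against -0.04 over all features. All 5 exceeded 2-fold, as did 2.87% of all features. Cxcl2 and Cxcl3 passed the filter only through the aspirated rCNT group, where they were high. The filter thus favoured their rise here, and the counts and median that include them are descriptions only.

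Cxcl1 (KC), which mouse epithelium and macrophages release early in inflammation, was at 10.17, 9.88, 10.30 and 10.77 in aspirated rCNT replicates 1 to 4. In the PBS replicates it was at 7.17, 7.13, 7.37 and 7.41. The groups did not overlap, as for 19.2% of all features in the higher direction, and every sample of both was well above background. The difference was 3.01 ± 0.23 (SE, n = 4 and 4, adjusted p = 2.92e-08), which ranked 37 from the top among 25251.

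Cxcl2 (MIP-2), a chemokine of activated macrophages and neutrophils, was at 6.93, 7.11, 8.03 and 7.46 in the aspirated rCNT replicates. In the PBS replicates it was at 6.11, 6.16, 6.27 and 6.20, with none well above background. The exposed samples were all higher and also the most scattered, with an SD of 0.48 against 0.07. The PBS SD is that of values near background, so the SDs do not compare the spread of expression. Against the lowest signal measurable in the PBS samples Cxcl2 was at least 2.22-fold higher, the fitted difference being 1.20 ± 0.17 (adjusted p = 2.7e-05).

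Cxcl3, a close relative of Cxcl2, was at 8.08, 8.09, 8.17 and 8.48 after aspirated rCNT. Its PBS values were 6.13, 6.22, 6.22 and 6.16, again with none well above background. The 2 groups were each narrow and did not overlap. Cxcl3 was at least 3.99-fold higher, with a fitted difference of 2.02 ± 0.09, the smallest SE among the 6 genes (adjusted p = 1.1e-10). Only 5 of 15 samples were well above background for Cxcl3. Values near background vary little on this scale, so that SE does not show how precisely Cxcl3 was measured.

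Cxcl5 (LIX), an epithelial chemokine of alveolar type 2 cells, was at 10.58, 10.47, 10.47 and 12.32 after aspirated rCNT. In the PBS samples it was at 6.27, 6.43, 6.17 and 7.21, and only PBS replicate 4 was well above background. Replicate 4 was the highest of its group on both sides, and the lowest exposed sample still lay 3.26 above the highest PBS sample. The difference was 4.44 ± 0.39 (adjusted p = 1.51e-07), which ranked 13 from the top of 25251. Without aspirated rCNT replicate 4 it was 3.88 and still passed.

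Cxcl15 was at 14.68, 14.75, 14.53 and 14.99 after aspirated rCNT and at 14.47, 14.45, 14.44 and 14.79 after PBS. The groups overlapped, because PBS replicate 4 lay above 3 of the 4 exposed samples. The difference of 0.20 ± 0.16 did not pass (adjusted p = 0.352), and its 95% confidence interval ran from -0.15 to 0.55. No spot of these genes was saturated, so the upper end of the scanner did not limit this value.

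Cxcr2 was at 8.26, 8.03, 8.37 and 8.59 after aspirated rCNT and at 7.26, 7.14, 7.02 and 7.54 after PBS. All 15 samples were well above background for this gene, and the 2 aspiration groups did not overlap. The difference was 1.07 ± 0.13 (adjusted p = 7.41e-06). In whole lung, fewer or more cells of a type and less or more RNA per cell cannot be told apart.

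**Figure D1:**
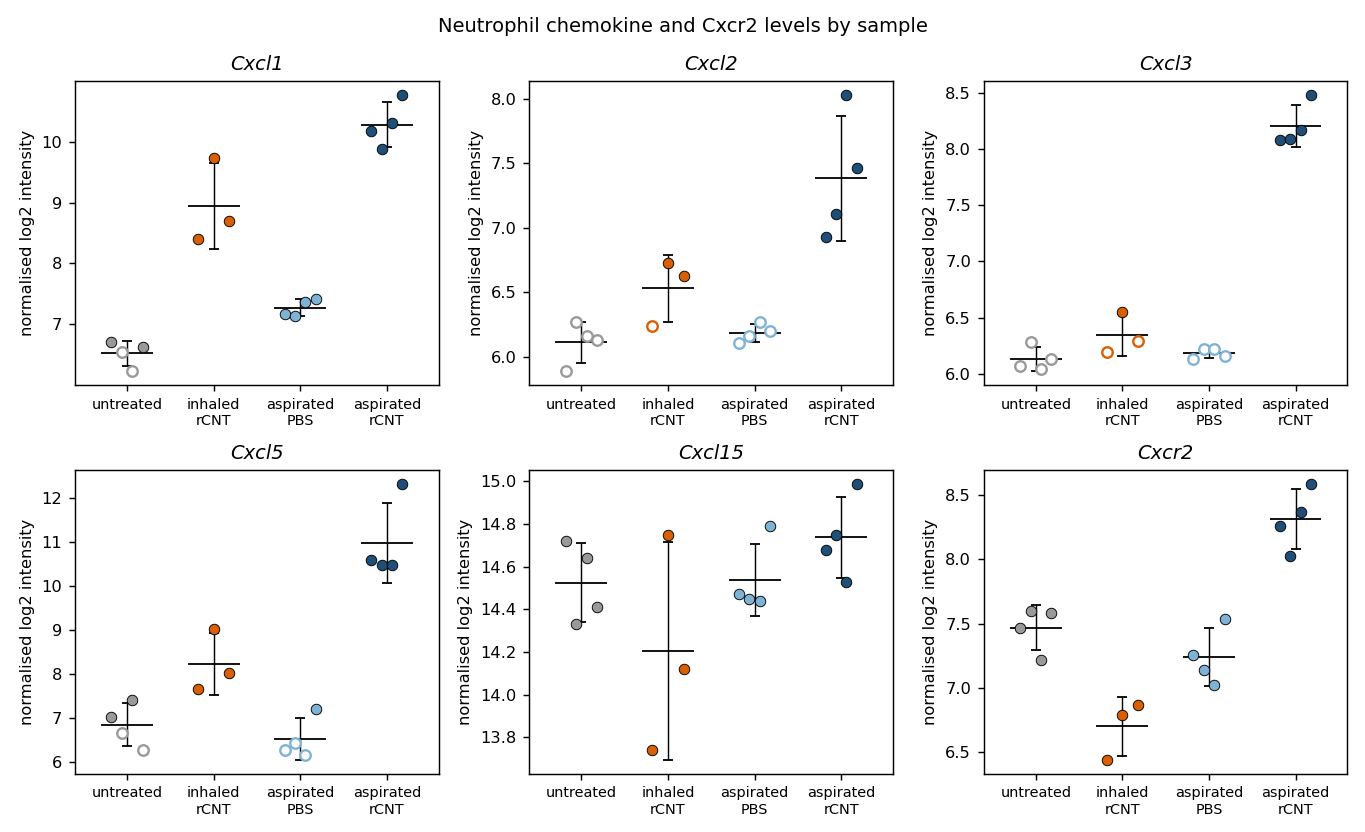
Normalised log2 intensity of the 6 genes in each of the 15 samples, by group, with the group mean (bar) and SD (whisker); filled points were well above background and open points were not. Aspirated rCNT samples lie above all others for Cxcl1, Cxcl2, Cxcl3, Cxcl5 and Cxcr2, the 3 inhaled rCNT samples are the lowest for Cxcr2, and the axis of each panel has its own range.

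After inhaled rCNT Cxcl1 and Cxcl5 were higher than in untreated lungs by 5.42-fold and 2.7-fold, and Cxcr2 was lower by 1.69-fold. Cxcl2 passed the threshold narrowly, and Cxcl3 and Cxcl15 did not pass. In all, 3 of 6 genes were higher and 1 was lower, where 28.4% of all features were called higher, 32.5% lower and 60.8% in either direction. The median over the 6 genes was 0.33, against -0.02 over all features. Without inhaled rCNT replicate 2, the highest inhaled sample for all 5 chemokines, only Cxcl1 remained called among the higher genes. That replicate was also the only inhaled sample in the Cy5 channel.

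Cxcl1 was at 8.40, 9.74 and 8.69 in inhaled rCNT replicates 1 to 3. The untreated replicates 1 to 4 were at 6.71, 6.54, 6.23 and 6.62, of which replicates 1 and 4 were well above background. The lowest inhaled sample exceeded the highest untreated sample by 1.69, and 25.7% of all features were likewise higher without overlap. The difference was 2.44 ± 0.25 (n = 3 and 4, adjusted p = 5.05e-07), and it was 1.95 within slide 2 and 2.56 within slide 3.

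Cxcl5 was at 7.66, 9.02 and 8.01 after inhalation. Untreated samples were at 7.03, 6.66, 7.41 and 6.28, and replicates 1 and 3 were well above background. The groups did not overlap, but the gap between the lowest inhaled and the highest untreated sample was 0.25. The difference was 1.43 ± 0.42 (adjusted p = 0.00796). It did not pass without inhaled rCNT replicate 2 (1.02, adjusted p = 0.0791), and it was 0.68 within slide 2 and 2.20 within slide 3.

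Cxcl2 was at 6.24, 6.73 and 6.63 after inhalation and at 5.89, 6.27, 6.16 and 6.13 in untreated lungs. No untreated sample and only inhaled replicates 2 and 3 were well above background, and the groups overlapped. The fitted difference was 0.45 ± 0.18 (adjusted p = 0.045), at least 1.17-fold. Leaving out 1 sample ended that call in 10 of 15 cases, with differences of 0.39 to 0.58. Within slides 2 and 3 the differences were 0.24 and 0.48.

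Cxcl3 was at 6.19, 6.55 and 6.29 after inhalation and at 6.07, 6.28, 6.04 and 6.13 in untreated lungs, and only inhaled replicate 2 was well above background. The difference of 0.22 ± 0.10 did not pass (adjusted p = 0.0727). Leaving out aspirated rCNT replicate 4, inhaled rCNT replicate 1 or untreated replicate 2 brought it past the threshold, at 0.23, 0.30 and 0.26 (adjusted p = 0.0202, 0.0357 and 0.0454). All 7 values but that of inhaled replicate 2 were thus not measured above background.

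Cxcl15 was at 13.74, 14.75 and 14.12 after inhalation, against 14.72, 14.33, 14.64 and 14.41 in untreated lungs. Inhaled replicates 1 and 3 lay below all 4 untreated samples and replicate 2 above them. The difference of -0.31 ± 0.18 did not pass (adjusted p = 0.149), whereas without inhaled rCNT replicate 2 it was -0.63 and passed (adjusted p = 0.00267). Within slide 2 it was -0.81 and within slide 3 it was 0.01.

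Cxcr2 fell, whereas Cxcl1, Cxcl5 and, narrowly, Cxcl2 rose, and Cxcl15 had the same sign as Cxcr2 without passing. Cxcr2 was at 6.44, 6.79 and 6.87 after inhalation and at 7.47, 7.60, 7.22 and 7.58 in untreated lungs. The groups did not overlap, as for 29.1% of all features in the lower direction. Cxcr2 fell by 0.76 on the log2 scale (SE 0.15, adjusted p = 0.000304), and it was lower by 0.97 within slide 2 and by 0.76 within slide 3.

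The change after aspiration was set against the change after inhalation in the same model, as a difference of the 2 differences. It was positive and passed for 4 of 6 genes, where 28.4% of features were called in that direction and 57% in either direction, and the median over the 6 genes was 1.27 against -0.01. For Cxcl3 it was 1.80 ± 0.14 (adjusted p = 4.25e-08), for Cxcl5 3.01 ± 0.57 (adjusted p = 0.000326) and for Cxcr2 1.83 ± 0.20 (adjusted p = 1.41e-06). For Cxcl2 it was 0.75 ± 0.25 (adjusted p = 0.0184), and it did not pass without inhaled rCNT replicate 1 (0.63, adjusted p = 0.0574). Cxcl2 and Cxcl3, both in the count of 4, passed the filter only through the aspirated rCNT group.

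For Cxcl1 the 2 changes were not told apart. Its difference between routes was 0.57 ± 0.33 (adjusted p = 0.158), with a 95% confidence interval of -0.14 to 1.28. Without inhaled rCNT replicate 2 the difference was 1.05 and passed (adjusted p = 0.00188). Cxcl15 had a difference of 0.50 ± 0.24 (adjusted p = 0.0889), which likewise passed without that sample (0.83, adjusted p = 0.00216).

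**Figure D2:**
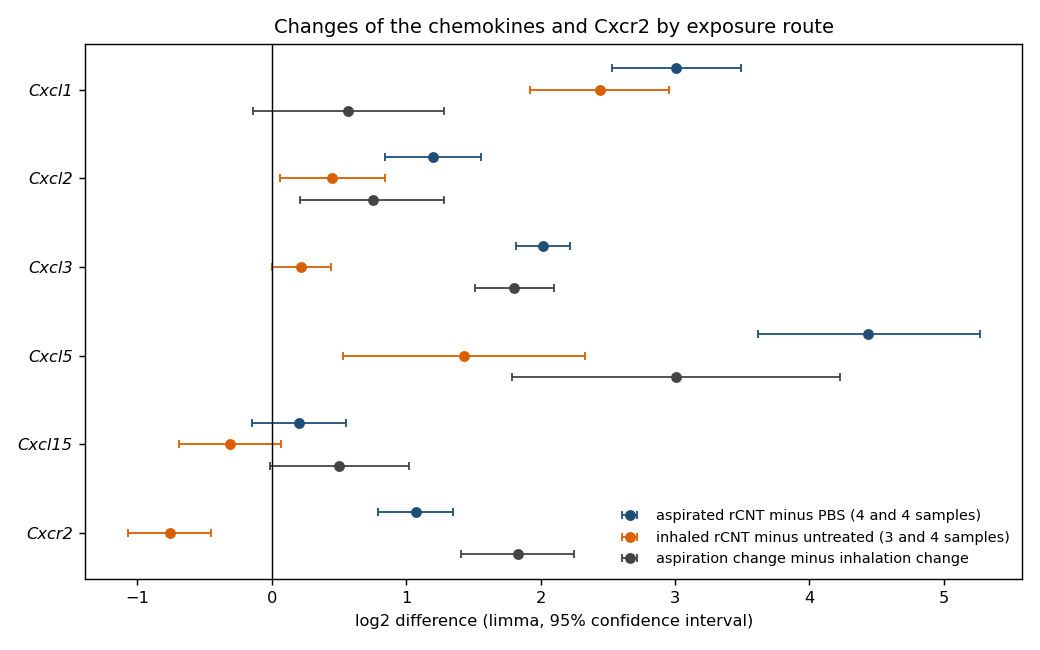
Log2 difference with 95% confidence interval for aspirated rCNT against PBS (blue), inhaled rCNT against untreated (orange) and the first change minus the second (grey). The grey interval lies above 0 for Cxcl2, Cxcl3, Cxcl5 and Cxcr2 and includes 0 for Cxcl1, at -0.14 to 1.28, and Cxcl15, at -0.01 to 1.02.

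Of the 6 genes only Cxcl1 passed the test between the 2 control groups. Its level was higher in PBS than in untreated lungs by 0.74 ± 0.23 (adjusted p = 0.0103), a comparison in which 26.3% of features were called higher and 59.4% in either direction. That difference did not pass under scaling to the 75th percentile (0.47, adjusted p = 0.0762). The other 5 genes lay between -0.32 for Cxcl5 and 0.08 for Cxcl2 and did not pass. Under 75th percentile scaling Cxcl3 (-0.46, adjusted p = 0.00437) and Cxcr2 (-0.37, adjusted p = 0.0321) were lower in PBS and passed. That scaling moved the median of all features to -0.20. Cxcl3 was well above background in 0 of 4 samples of either control, so its value is not a measured fall. The PBS samples also stood apart in cardiac muscle markers, 8 of 8 of which were higher than in untreated lungs (list median 1.64). Their summed intensity was 87600 to 107000 after PBS, against 35400 to 50200 after aspirated rCNT, 22600 to 40100 after inhaled rCNT and 22300 to 58600 in untreated lungs. The part of that difference in the values of the 6 genes was not tested.

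The remaining comparisons of group levels cross the routes and share their samples with those above. Between the 2 exposed groups all 6 genes were higher after aspiration (27.9% of features higher, 61.4% in either direction), from 0.52 ± 0.18 for Cxcl15 (adjusted p = 0.02) to 2.69 ± 0.42 for Cxcl5 (adjusted p = 4.77e-05). That count includes Cxcl2 and Cxcl3, which the filter kept only through the aspirated rCNT group. Under 75th percentile scaling the Cxcl2 difference was 0.35 and did not pass (adjusted p = 0.193), against 0.82 ± 0.18 here. The Cxcl15 difference did not pass without aspirated rCNT replicate 4 (0.40, adjusted p = 0.0805), inhaled rCNT replicate 1 (0.30, adjusted p = 0.139) or inhaled rCNT replicate 3 (0.49, adjusted p = 0.0588). Inhaled rCNT lungs against PBS lungs had higher Cxcl1 (1.70) and Cxcl5 (1.75) and lower Cxcr2 (-0.53, adjusted p = 0.00576), a count of 2 higher and 1 lower where 27.5% of features were called higher, 27.7% lower and 55.2% in either direction. Under 75th percentile scaling the last value was -0.09 and did not pass (adjusted p = 0.63). The count of higher genes was 4 both with median centring and with 75th percentile scaling, because Cxcl2 (0.55 with median centring, adjusted p = 0.022 and 0.00171) and Cxcl3 (0.38 and 0.82, adjusted p = 0.00731 and 9.85e-05) then passed. No PBS sample was well above background for either gene. Cxcl2 also passed on the processed signal (2.30), with array weights (0.45) and without aspirated rCNT replicate 1 (0.38) or 3 (0.35), and Cxcl3 with cyclic loess (0.32). Cxcl15, at -0.32, passed as lower with median centring (-0.78), array weights (-0.39), without inhaled rCNT replicate 2 and untreated replicate 4, which share an array (-0.66), and without inhaled rCNT replicate 2 (-0.64, adjusted p = 0.00293).

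By mean level Cxcl1 stood in the order aspirated rCNT at 10.28 ± 0.37 (SD, n = 3 or 4), inhaled rCNT at 8.95 ± 0.71, PBS at 7.27 ± 0.14 and untreated at 6.53 ± 0.21, and each neighbouring pair differed past the threshold. Cxcl5 followed with aspirated rCNT at 10.96 ± 0.91, inhaled rCNT at 8.23 ± 0.71, untreated at 6.84 ± 0.48 and PBS at 6.52 ± 0.47, and the 2 controls did not pass. For Cxcl2 and Cxcl3 the aspirated rCNT group differed from inhaled rCNT, next in order, and neither inhaled rCNT and PBS nor the 2 controls passed, although inhaled rCNT was above PBS for both genes under the scalings just given. For Cxcr2 the order was aspirated rCNT at 8.31 ± 0.23, untreated at 7.47 ± 0.17, PBS at 7.24 ± 0.22 and inhaled rCNT at 6.70 ± 0.23, where the 2 controls did not pass except under 75th percentile scaling, PBS and inhaled rCNT differed, and aspirated rCNT was not tested against untreated. For Cxcl15 the order was aspirated rCNT at 14.74 ± 0.19, PBS at 14.54 ± 0.17, untreated at 14.53 ± 0.18 and inhaled rCNT at 14.20 ± 0.51, and no neighbouring pair passed.

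Over the 15 samples the inducible chemokines ran in parallel, which largely repeats their group differences. Pearson's r was 0.94 for Cxcl3 with Cxcl5, 0.92 for Cxcl1 with Cxcl5 and 0.87 for Cxcl1 with Cxcl3. After group means and dye were removed, r was 0.81 for Cxcl1 with Cxcl3, 0.63 for Cxcl1 with Cxcl5 and 0.10 for Cxcl2 with Cxcl5. Cxcl15, whose group means differed little, had r of 0.80 with Cxcl5 and 0.75 with Cxcl1 within groups. Inhaled rCNT replicate 2 was the highest of its group for all 5 chemokines, and aspirated rCNT replicate 4 was the highest of its group for every gene but Cxcl2. Both samples share slides with others. Inhaled rCNT replicate 2 was the only Cy5 sample of its group, whereas every other group had 2 samples of each dye. Although dye was a term of the model, dye and this sample cannot be told apart within the inhaled group. Each r describes 15 points in 4 groups.

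The genes most like each of the 6 were taken as the 3 with the highest r over the 15 samples among 15831 named genes. For Cxcl1 they were Slc26a4 (pendrin, an airway anion exchanger, r = 0.985), Itga7 (0.980) and Lcn2 (lipocalin 2, 0.978). For Cxcl3 they were the eosinophil chemokine gene Ccl24 (0.992), Cd209d (0.991) and Sting1 (0.988), and for Cxcl5 Hdc, the enzyme that makes histamine (0.983), Bhlha15 (0.979) and Tgm1 (0.978). Cxcl2 was matched less closely, with Rgs1 at 0.937, Nrip3 at 0.936 and Gpnmb at 0.934. Cxcr2 had Slc15a3 at 0.972, Nrros at 0.964 and Bid at 0.961. Each rose after aspiration and fell after inhalation, which largely repeats their choice by likeness to Cxcr2 over the same samples. For Cxcl15 only Heatr1 (0.934) exceeded 0.9, while 586 genes did so for Cxcl3 and 385 for Cxcl1.

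In chromosome order the cluster reads Rassf6, Cxcl5, Ppbp, Pf4, Cxcl3, Cxcl15, Cxcl1, Cxcl2, Mthfd2l, Epgn, Ereg and Areg, and the changes did not follow position. Cxcl15, which did not pass in either route, lies between Cxcl3 and Cxcl1. Rassf6 at 1 end was at -0.06 ± 0.09 after aspirated rCNT (adjusted p = 0.633) and Mthfd2l beside Cxcl2 at -0.15 ± 0.10 (adjusted p = 0.218). After inhaled rCNT Mthfd2l fell by 0.38 (SE 0.10, adjusted p = 0.00484), and Rassf6 fell by 0.29 (SE 0.10, adjusted p = 0.0209). The latter did not pass under 75th percentile scaling (-0.11), with cyclic loess (-0.22) or without untreated replicate 1 (-0.26). Epgn, a growth factor gene of the epidermal growth factor family next to Mthfd2l, fell by 0.23 after aspiration (SE 0.08, adjusted p = 0.0255, and 0.0632 with 75th percentile scaling) and rose by 0.32 ± 0.09 after inhalation (adjusted p = 0.00438). Beyond it the growth factor genes Ereg (0.99 ± 0.12, adjusted p = 4.87e-06) and Areg (1.12 ± 0.17, adjusted p = 6.77e-05) rose after aspiration. Both also rose after inhalation, by 0.43 ± 0.13 and 1.70 ± 0.19 (adjusted p = 0.00929 and 1.44e-06). The neighbours are named because of their place, from the RefSeq gene order of GRCm38.p6.

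**Figure D3:**
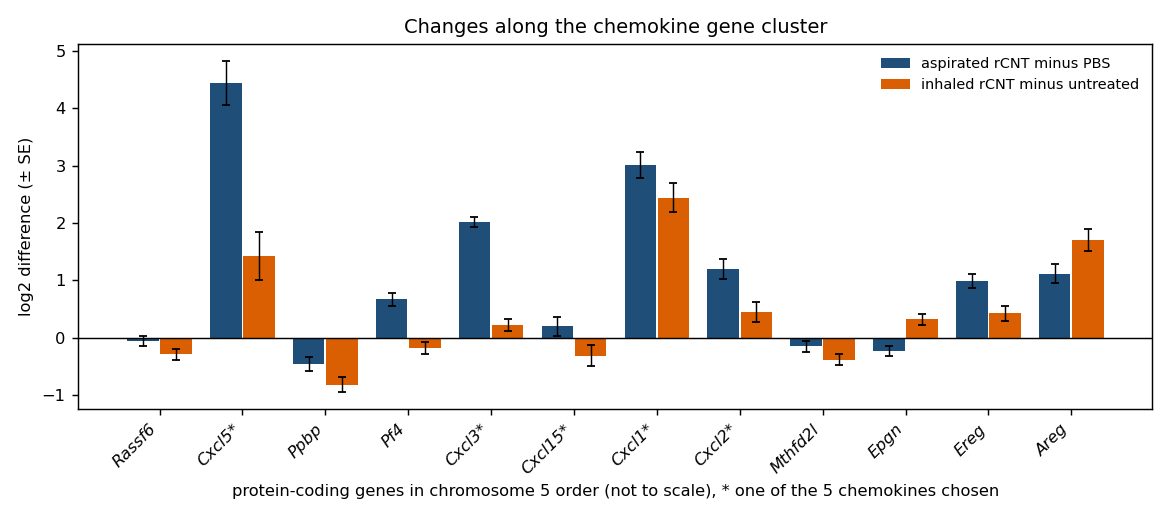
Log2 difference (bars, ± SE) of the 12 tested protein-coding genes of the chromosome 5 cluster, in chromosome order and not to scale, after aspirated rCNT (blue) and inhaled rCNT (orange). The high bars of Cxcl5, Cxcl3, Cxcl1 and Cxcl2 are interrupted by Ppbp, Pf4 and Cxcl15, and Cxcl15 has bars of 0.20 and -0.31.

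A list of related ligand and receptor genes, not limited to the family as defined above, comprised 4 genes. Of these, 3 were higher and 1 lower after aspiration and 1 higher and 1 lower after inhalation. Beside the counts of this and all later gene lists, 20.6% of all features were called higher and 26.5% lower after aspiration. After inhalation these shares were 28.4% and 32.5%. Ackr1, a scavenging receptor that carries chemokines across venular endothelium, rose from a mean of 6.45 after PBS to 7.45 after aspirated rCNT (SE of the difference 0.08, adjusted p = 4.17e-08). After inhalation its difference was -0.17 (adjusted p = 0.0917). Pf4, a platelet chemokine, rose by 0.67 ± 0.11 after aspiration (adjusted p = 7.82e-05). Ppbp, whose product is the precursor of a platelet-derived Cxcr2 ligand, was at -0.45 after aspiration (SE 0.12, adjusted p = 0.00519) and at -0.82 after inhalation (SE 0.13, adjusted p = 5.25e-05). Of 8 platelet and megakaryocyte markers 3 fell after aspiration and 6 after inhalation, and their part in the Ppbp values was not tested. Cxcr1, the sister receptor of Cxcr2, rose in both routes, by 0.29 ± 0.09 (adjusted p = 0.0133, and 0.0527 with 75th percentile scaling) and by 0.76 ± 0.10 (adjusted p = 5.19e-06), so that after inhalation the 2 receptor genes changed in opposite directions.

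Among inducing cytokines and their receptors 11 of 14 genes were tested, Il17a, Il17f and Csf3 being too dim. After aspirated rCNT 8 rose and 0 fell in the limma fit (0 also at an unadjusted p below 0.05), with a list median of 0.58, and after inhaled rCNT 4 rose and 2 fell, with a median of 0.09. Il6, which is induced alongside these chemokines, rose by 2.88 ± 0.17 after aspiration (adjusted p = 1.29e-09) and by 0.75 ± 0.18 after inhalation (adjusted p = 0.00189). Tnf, an activator of NF-kB, rose by 1.24 ± 0.08 (adjusted p = 3.93e-09) and by 0.38 ± 0.09 (adjusted p = 0.00115). After inhalation the receptor genes Tnfrsf1a fell by 0.62 (SE 0.06, adjusted p = 4.86e-07) and Il17rc rose by 0.53 ± 0.06 (adjusted p = 2.16e-06), although with median centring Il17rc was at 0.12 and did not pass. Il1b, named here after its values were seen, rose by 2.12 ± 0.21 after aspiration (adjusted p = 7.59e-07) and was at 0.43 ± 0.23 after inhalation (adjusted p = 0.121).

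Of 18 NF-kB and mRNA-stability regulators, 10 were higher and 2 lower after aspiration and 8 higher and 3 lower after inhalation, with medians of 0.30 and 0.05. The inhalation count turned on scaling, with 1 higher and 7 lower after median centring and 3 higher and 4 lower after 75th percentile scaling, and without inhaled rCNT replicate 2 it was 5 higher and 3 lower. Nfkbie, an inhibitor of NF-kB, rose by 1.22 ± 0.08 after aspiration (adjusted p = 4.35e-09) and Nfkb2, an NF-kB subunit, by 1.03 ± 0.07 (adjusted p = 1.01e-08). Zc3h12a (regnase-1), an RNase that degrades inflammatory mRNAs, rose in both routes, by 0.90 ± 0.09 and 0.85 ± 0.09 (adjusted p = 3.85e-07 and 1.09e-06), a difference of 0.04 ± 0.13 (adjusted p = 0.79). Traf3ip2 (Act1), the adaptor of interleukin-17 receptors, fell by 0.59 after inhalation (SE 0.06, adjusted p = 9.92e-07).

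Of 13 genes through which Cxcr2 signals in leukocytes 8 were higher and 1 lower after aspiration, where 20.6% and 26.5% of all features were. After inhalation 0 were higher and 8 lower in the limma fit (1 higher at an unadjusted p below 0.05), where 28.4% and 32.5% of all features were. The list medians were 0.32 and -0.34. With cyclic loess 4 were higher and 6 lower after inhalation. Prkcd, a protein kinase C, rose by 0.90 ± 0.08 after aspiration (adjusted p = 1.04e-07) and was at 0.11 after inhalation (adjusted p = 0.26), and the Src-family kinase gene Fgr rose by 0.84 ± 0.13 after aspiration (adjusted p = 6.86e-05). Dock2, which activates Rac in migrating leukocytes, rose by 0.33 ± 0.11 after aspiration (adjusted p = 0.017) and fell by 0.91 after inhalation (SE 0.11, adjusted p = 5.18e-06). Grk6, a kinase that desensitises chemokine receptors, was at 0.06 ± 0.08 after aspiration (adjusted p = 0.557) and fell by 0.63 after inhalation (SE 0.09, adjusted p = 1.81e-05). Most of these genes are active in other leukocytes as well.

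Of the 5 genes of marrow retention and release of neutrophils, 1 was higher and 1 lower after aspiration and 1 higher and 3 lower after inhalation. Cxcl12, the ligand that retains neutrophils in marrow and is made by lung stroma too, fell by 1.34 after inhalation (SE 0.13, adjusted p = 3.18e-07) and was at -0.13 after aspiration (adjusted p = 0.415). Vcam1, an adhesion molecule of endothelium and stroma, rose by 0.49 ± 0.10 after aspiration (adjusted p = 0.000517) and fell by 0.29 after inhalation (SE 0.10, adjusted p = 0.0262), the latter not passing with cyclic loess (-0.17) or without inhaled rCNT replicate 2 (-0.30). Csf3r, the receptor of the granulocyte growth factor, went the other way, at -0.39 (SE 0.05, adjusted p = 1.73e-05) and at 0.53 ± 0.06 (adjusted p = 1.04e-06), although with median centring the latter was 0.06 and did not pass.

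The defining markers of neutrophils did not form 1 pattern, and 7 of 8 were tested, with no probe matched to Ly6g. After aspiration Mmp8, a neutrophil collagenase, rose by 1.17 ± 0.17 (adjusted p = 2.79e-05), Retnlg by 1.93 ± 0.17 (adjusted p = 1.44e-07) and Cxcr1 by 0.29, while Csf3r fell. S100a8 and S100a9, which encode calprotectin, were at 0.51 ± 0.26 and 0.24 ± 0.26 after aspiration (adjusted p = 0.115 and 0.481), and Mmp9 at 0.20 ± 0.12 (adjusted p = 0.192). After inhalation S100a8 fell by 2.63 (SE 0.28, adjusted p = 8.37e-07), S100a9 fell by 2.64 (SE 0.28, adjusted p = 8e-07) and Mmp9 fell by 1.28 (SE 0.13, adjusted p = 7.3e-07), to a level well above background in none of the 3 samples. Mmp8 at -0.02 and Retnlg at 0.11 did not pass after inhalation, and Cxcr1 and Csf3r rose. Over the full list of 22 tested neutrophil markers 10 were higher and 4 lower after aspiration, and 7 higher and 9 lower after inhalation. Of all features 20.6% were called higher and 26.5% lower after aspiration, and 28.4% and 32.5% after inhalation.

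The summed intensity of the 7 defining markers was 88600 to 112000 after aspirated rCNT, 96800 to 117000 after PBS, 87100 to 99800 after inhaled rCNT and 82300 to 89000 in untreated lungs. The Csf3r probe was the brightest of the 7, with group means of 15.95, 16.34, 16.39 and 15.89 in that order. It made up most of the summed intensity in every group, so the sums mainly follow this probe. They do not show the fall of S100a8 and S100a9 after inhalation. Over the 15 samples the r of Cxcr2 was 0.80 with S100a8, 0.89 with Padi4, -0.62 with Csf3r and -0.84 with Itgam. These r largely repeat group differences. After group means and dye were removed, they were 0.72, 0.44, -0.01 and -0.53 in the same order. Padi4 and Itgam were named after these values were seen.

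**Figure D4:**
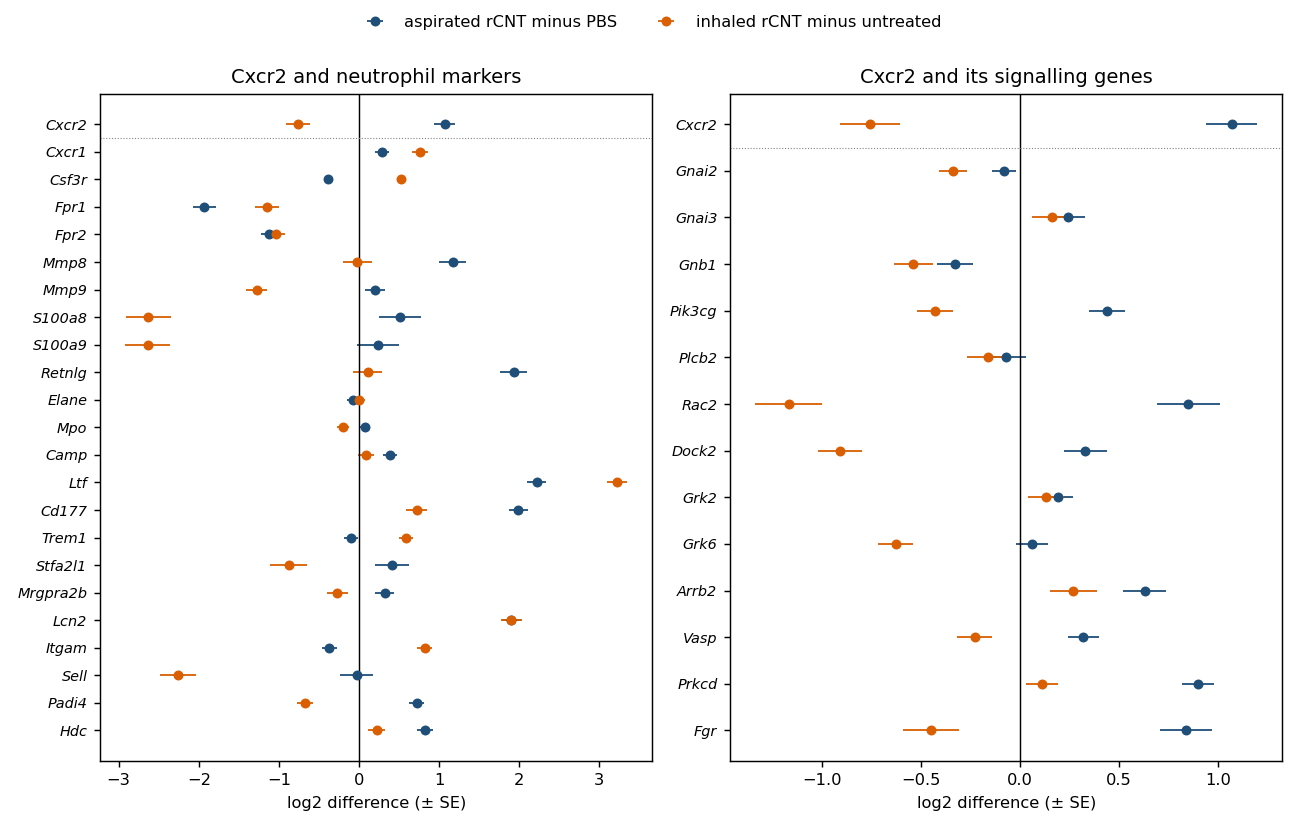
Log2 difference (± SE) of Cxcr2, above the dotted line, and of 22 neutrophil markers (left) and 13 signalling genes (right), after aspirated rCNT (blue) and inhaled rCNT (orange). Blue points of the signalling genes are mostly to the right of orange ones, with 8 of 13 higher after aspiration and 8 of 13 lower after inhalation, whereas the neutrophil markers spread to both sides in both routes.

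Markers of other cell types that make or answer these chemokines also moved, as did 47.2% of all features after aspiration and 60.8% after inhalation. Of 10 macrophage and monocyte markers 8 rose and 1 fell after aspiration, with a list median of 1.38. After inhalation 4 rose and 3 fell, with a median of -0.10, and with median centring 2 rose and 5 fell. The macrophage gene Adgre1 was at 1.29 ± 0.07 and -0.40 ± 0.08. Their summed intensity was 54600 to 62900 after aspirated rCNT, 33600 to 37700 after PBS, 29100 to 33800 after inhaled rCNT and 29900 to 32600 in untreated lungs. Of 8 goblet cell markers 8 rose after aspiration and 7 after inhalation, with medians of 1.54 and 1.99 and Muc5ac at 3.67 and 1.96. Of 7 club cell markers 2 rose and 5 fell after aspiration, and 2 rose and 2 fell after inhalation, with Scgb1a1 at -0.98 and 0.03 (0.72 with cyclic loess). The club cell counts after inhalation were 4 higher and 1 lower with cyclic loess and 2 higher and 4 lower with median centring. The 10 alveolar type 2 markers, of the cells known to make Cxcl5 and Cxcl15, had 1 higher and 4 lower after aspiration and 1 higher and 5 lower after inhalation (0 and 9 with median centring). Of 8 endothelial markers 7 fell after aspiration and 8 after inhalation. Of 4 tested mast cell markers 1 fell after aspiration, and 1 rose and 1 fell after inhalation. Of 8 cardiac muscle markers, higher in PBS than in untreated lungs as given above, 8 fell after aspiration against PBS and 2 after inhalation against untreated lungs (1 to 4 under the other settings run). Of 4 tested thymus markers 1 fell after aspiration, and 1 rose and 3 fell after inhalation. The part of any of these in the values of the chemokines and Cxcr2 was not tested.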

How the data were processed

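RNA of 15 mouse lung samples was measured on 2-colour Agilent arrays, and each sample is 1 channel of an array. The members and gene lists were chosen with earlier results of these data known. Per the file headers, the deposited intensity values were extracted with Agilent Feature Extraction 11.0.1.1 on a design referring to mm9, and the submitters' processing notes also name limma. The deposited log2 values of the series table have no stated scale, centring or direction; they were taken as log2, with column medians of 6.58 to 6.59 and a correlation of at least 0.999 with the values here, and served as an alternative.

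Median spot intensity and local background of each sample's own channel were corrected by normexp (offset 50), log2-transformed and quantile-normalised over 15 channels. Control spots and outlier flags were left out. A probe was kept where at least 3 samples of 1 group were well above background (34271 of 55681), and the brightest probe stood for a gene (25251 tested, 15841 with a symbol). Names came from RefSeq (27656 of 29123 accessions matched). limma 3.58.1 in R 4.3.3 fitted group and dye with 6 contrasts, adjusted by Benjamini-Hochberg over all features at 0.05. The script was tested on simulated data. A lower bound ("at least") uses the lowest signal well above background in a group where no sample was. It concerns group means and does not allow for sampling error. Named from each pathway list were the 2 genes with the smallest p in each route among those past the threshold, all neutrophil defining markers, and at most 2 of other marker lists; a gene of the signalling list is not reported here. Deviations of same-numbered samples had r from -0.43 to 0.08. Dye was not removed from them, and same-numbered aspiration samples carried opposite dyes, so these r cannot show whether replicate numbers pair samples. No block was used in the main fit. Alternatives covered background, scaling, filter, probe choice, dye, slide, variance model and each sample left out; leaving out both samples of the shared array, and the alternatives for gene lists, were chosen after seeing the data. The number of arrays limits the precision.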

Additional observations from a re-analysis of the deposited data

Results flagged for a closer look

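In aspirated rCNT replicate 4 Cxcl5 was at 12.32, with the next sample at 10.58, a gap of 0.942 of the group's range. In aspirated PBS replicate 4 Cxcl15 was at 14.79, with the next at 14.47, a gap of 0.917 of the range. Both gaps exceed Dixon's 95% critical value for 4 samples. In all, 18 groups of 4 samples were looked at, and chance alone marks about 1 in 20.

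The changes after aspirated and inhaled rCNT differed by limma's test of the difference for Cxcl2 (0.75, adjusted p = 0.0184), Cxcl3 (1.80, adjusted p = 4.25e-08), Cxcl5 (3.01, adjusted p = 0.000326) and Cxcr2 (1.83, adjusted p = 1.41e-06). For Cxcr2 the 2 changes had opposite signs, 1.07 and -0.76, and both passed. Route, control group and slide changed together in this design and cannot be told apart.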

How the results depend on the processing

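For aspirated rCNT against PBS all 6 genes and the counts kept their direction and side of the threshold in 98 comparisons under other settings and in 90 with a sample left out. The processed signal, which has no offset, raised Cxcl2, Cxcl3 and Cxcl5 to 4.14, 5.58 and 6.86, with Cxcl1 at 3.84, so that the order of these genes changed. For Cxcl2, Cxcl3 and largely Cxcl5 the PBS signal was near background, so neither order is a measured one.

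For inhaled rCNT against untreated, Cxcl1 (1.95 to 4.29) and Cxcr2 (-1.55 to -0.46) kept their direction under all settings run. Both passed under those with more than 1 sample in each group. Cxcl2 did not pass with median centring (0.35), 75th percentile scaling (0.55), cyclic loess (0.37), no filter (0.45), no dye term (0.42), slide as a random block (0.43) or a fixed term (0.35), a trended robust variance (0.45) or without the shared array (0.44), with adjusted p from 0.0556 to 0.159. It was 0.24 within slide 2 and 0.48 within slide 3, and spanned 0.39 to 0.58 with 1 sample left out. Cxcl3 passed with offset 16 (0.40), no background correction (0.29), processed signal (1.21), 75th percentile scaling (0.36) and the series table (0.29), and spanned 0.10 to 0.30 with 1 sample left out. Cxcl5 did not pass without the shared array (0.76), was 0.68 within slide 2, and spanned 1.02 to 1.70. Cxcl15 passed with median centring (-0.80), 75th percentile scaling (-0.60), array weights (-0.39) and without the shared array (-0.70). It was -0.81 within slide 2 and 0.01 within slide 3, and spanned -0.63 to -0.09. The count of higher genes was 1 without the shared array, and 1 to 4 with a sample left out.

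For the difference between routes, Cxcl1 passed with median centring (1.02), 75th percentile scaling (0.80), cyclic loess (0.94) and without the shared array (1.02), was -0.45 on the processed signal without passing, and spanned 0.32 to 1.05. Cxcl2 did not pass with array weights (0.59) and spanned 0.55 to 0.92. Cxcl15 passed with median centring (1.11), 75th percentile scaling (0.88), array weights (0.58) and without the shared array (0.89), and spanned 0.29 to 0.83. For PBS against untreated, signs turned for Cxcl2 (-0.28 processed, -0.20 median centring, -0.45 75th percentile, -0.07 loess), Cxcl3 (-0.21 median centring, -0.46 75th percentile with adjusted p = 0.00437, -0.14 loess) and Cxcl15 (-0.02 median centring, -0.26 75th percentile, -0.00 with slide as a random block or array weights, -0.04 without the shared array, and -0.07 to 0.10 with a sample left out). Cxcr2 passed there under 75th percentile scaling (-0.37), and Cxcl1 did not (0.47). The cause of these changes was not tested.

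Among the 2 route comparisons and their difference, a replicate block changed only the call of Cxcl3 after inhalation (0.24, adjusted p = 0.0493). The block gave 11340 called features for aspiration against 11907 without it. Median centring moved the median of all features to -0.15 for inhalation and 0.14 for the difference, and the share of calls that were higher from 46.6% to 27.5% and from 49.9% to 69.4%. 75th percentile scaling moved the median for PBS against untreated to -0.20 and the share from 44.3% to 26.9%. Median centring put the latter share at 59.2%. For inhaled rCNT against PBS the shares were 21.1% and 67.2% under the 2 scalings against 49.9%, and for the 2 exposed groups 75.7% and 32% against 45.5%. Limiting the test to probes well above background in all samples left out Cxcl1, Cxcl2, Cxcl3 and Cxcl5, so it gave no value for them. Signal near background limits Cxcl2 and Cxcl3 outside the aspirated rCNT group.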
